A study of Mus musculus with 2 samples.

Results

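The 27007 weak open regions described here were found by ATAC-seq in mouse blood monocytes and lie outside the set of regions that kept their rank between the replicates. They make up 49.2% of the 54855 regions obtained when the overlapping peaks of the replicated set, the looser of the authors' sets made from both replicates, were merged on chromosomes 1 to 19 of mm10. A merged region was kept as weak when it shared no base with any peak of the conservative set. The other 27848 regions overlapped that set and served as the comparison. The members were therefore selected on measured values: a peak enters the conservative set by its irreproducible discovery rate (IDR), which ranks peaks by strength in each replicate and asks whether the ranks are kept. Strength and agreement between replicates are thus given as a description.

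The series held 1 group of 2 biological replicates and no control. Primary monocytes were taken from blood of adult mice of the C57BL/6J strain, aged 5 to 6 weeks, and each library was made from 50000 cells. The same donor identifier is shared by both replicates in the labels, which do not state whether the animals were separate, so differences between the replicates may be technical. The labels name no sort or purity. The values are peak lists with no read counts, so library depth is unknown.

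ATAC-seq uses the Tn5 transposase to insert adapters into DNA that is not wrapped in nucleosomes, so a peak marks a stretch of accessible chromatin. Accessible stretches are mostly promoters, which lie at transcription start sites (TSSs), and distal elements such as enhancers and insulators. In monocytes many enhancers are opened by PU.1, an ETS-family factor that directs myeloid development, together with C/EBP, RUNX and AP-1 factors, while CTCF binds insulators. A weak peak can come from a site that is open in few of the cells or a little in many, and in a bulk sample these cannot be told apart.

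The 5 sequences below show what such regions hold. Each is the distal weak region with the highest mean fold in both replicates' own peak lists among those with a given motif within 50 bp of the summit, and each runs 75 bases to either side of the summit. All are on the forward strand of GRCm38.p6, the assembly that mm10 stands for, and capitals mark the motif. The first lies between genes 13.8 kb from the TSS of Lats2 (a kinase of the Hippo pathway), at chr14:57772559-57772709, with the PU.1 motif GAGGAAGT. The second lies in an exon 1.27 kb from a TSS of Enah (a regulator of actin filaments), at chr1:181922219-181922369, with the C/EBP motif TTGCNNAA. The third lies 3.62 kb from the TSS of Zfp974 (a zinc-finger gene), at chr7:27933579-27933729, with the AP-1 motif TGANTCA. The fourth lies 10.9 kb from Rxfp4 (a receptor for relaxin-family peptides), at chr3:88664168-88664318, with the RUNX motif TGTGGTT. The fifth lies 14.4 kb from Tcf7 (a transcription factor of T cells), at chr11:52297456-52297606, and holds the CTCF core AGGGGGC at 2 places, both on the reverse strand.
PU.1, near Lats2: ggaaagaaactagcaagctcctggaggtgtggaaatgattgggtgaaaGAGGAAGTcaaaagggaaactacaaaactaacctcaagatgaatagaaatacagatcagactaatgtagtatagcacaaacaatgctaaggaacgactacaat
C/EBP, near Enah: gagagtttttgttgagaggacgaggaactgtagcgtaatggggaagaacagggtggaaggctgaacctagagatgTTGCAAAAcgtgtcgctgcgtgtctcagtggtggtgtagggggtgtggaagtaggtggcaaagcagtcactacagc
AP-1, near Zfp974: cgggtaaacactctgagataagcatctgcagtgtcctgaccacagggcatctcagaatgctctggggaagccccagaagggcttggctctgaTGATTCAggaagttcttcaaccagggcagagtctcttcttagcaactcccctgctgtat
RUNX, near Rxfp4: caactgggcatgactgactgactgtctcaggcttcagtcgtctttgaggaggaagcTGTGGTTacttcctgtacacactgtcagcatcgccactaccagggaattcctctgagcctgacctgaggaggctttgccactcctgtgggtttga
CTCF core, near Tcf7: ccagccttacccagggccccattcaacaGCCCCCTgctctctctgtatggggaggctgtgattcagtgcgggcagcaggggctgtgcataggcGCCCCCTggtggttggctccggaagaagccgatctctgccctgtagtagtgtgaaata

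The name "weak" fits the typical member but not every one. The median fold enrichment over background in the peaks called on both replicates together was 3.41 (quartiles 2.90 and 4.09, highest 8.59), against 6.48 in the other regions. The median width was 283 bp against 448 bp, and the median −log10 p was 8.39 against 32.6. However, 3203 weak regions (11.9%) had a −log10 p at or above 14.2, the 5th percentile of the other regions, and 391 reached their 25th percentile. Strength alone therefore does not part the 2 sets.

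Most weak regions were not called in either replicate alone, or in only 1 of them. Each replicate's own list (the file of its pseudoreplicated peaks) held 9224 weak regions in replicate 1 (34.2%) and 9361 in replicate 2 (34.7%). Both lists held 4613 (17.1%), replicate 1 alone 4611, replicate 2 alone 4748, and neither 13035 (48.3%). Of the other regions, 91.2% were in both lists and 1.48% in neither. The median fold of weak regions in the own lists was 3.90 in replicate 1 and 3.72 in replicate 2, against 6.22 and 6.07 for the other regions. In the stricter own lists, which were cut by IDR within each replicate, 426 and 580 weak regions were present and 14 were in both.

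The weak regions found in both own lists were mostly low in both, and nearly all of those that were high were so in only 1 replicate. Of the 4613 regions, 3188 (69.1%) had a fold below 5 in both replicates. A fold of 5 or more was reached in both replicates by 12 regions (0.260%) and in exactly 1 replicate by 1413 (30.6%), 700 of them in replicate 1 and 713 in replicate 2. Only 50 (1.08%) differed between the replicates by more than 1 on the log2 scale. Among 25398 other regions in both own lists, 16885 (66.5%) reached it in both replicates. Across weak sites the log2 folds had a Pearson correlation of 0.14 (Spearman 0.13) and the SD of their difference was 0.46. Across the other sites these values were 0.88, 0.86 and 0.24. Regions strong and alike in both replicates are by construction in the conservative set, which leaves the notch along the diagonal in the plot of folds. Sites share their 2 libraries, so no p-value is given.

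**Figure D1:**
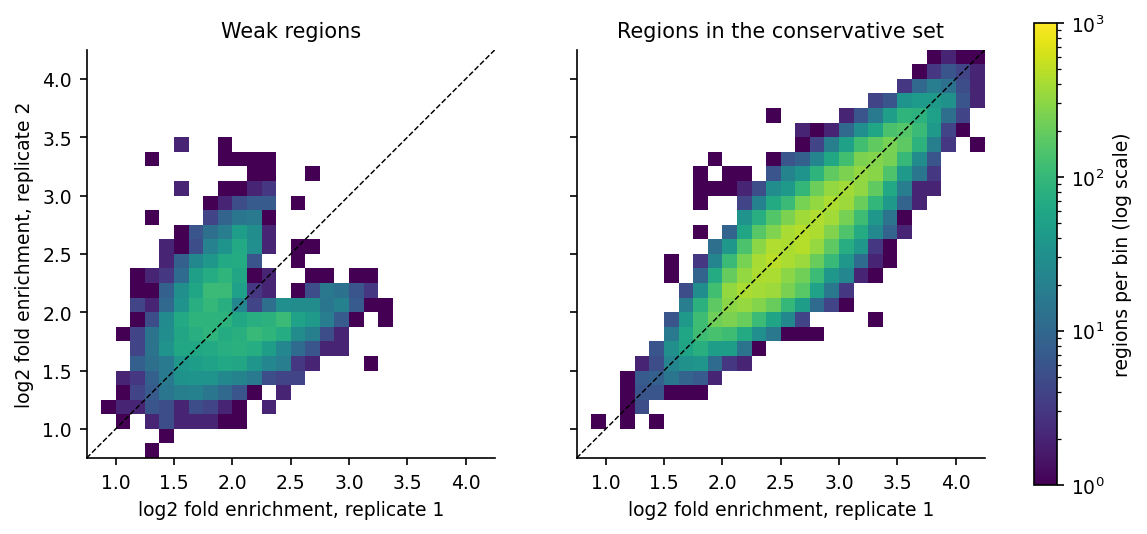
Log2 fold enrichment in the own list of replicate 1 (x axis) and of replicate 2 (y axis), with colour for the number of regions per bin on a log scale and a dashed line at equal fold. Many of the 4613 weak regions lie near the diagonal at low folds, the higher ones form an arm to each side of it, and only 12 reach a fold of 5 in both replicates, while the 25398 regions of the conservative set lie along it.

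The strongest members by mean fold also differed between the replicates, though some of them reached a fold of 5 in both. The region with the highest mean fold lies at chr1:62875620-62876122, between genes and 172 kb from Nrp2 (a co-receptor for semaphorins and VEGF), and had folds of 6.59 in replicate 1 and 9.47 in replicate 2 (8.03 ± 2.04, SD, n = 2). The exonic region of Enah, at chr1:181921543-181922491, had folds of 5.00 and 9.95 in the same order. In the intergenic region 27.9 kb from Apol7a (an apolipoprotein L gene), at chr15:77368199-77368530, they were 4.73 and 9.90. All 3 were higher in replicate 2.

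An exonic region 4.75 kb from the TSS of Pomc (the precursor of melanocortins and ACTH), at chr12:3959718-3960375, had 5.18 in replicate 1 and 9.21 in replicate 2. The promoter of Ndufaf4 (an assembly factor of mitochondrial complex I), at chr4:24897863-24898412, had 4.70 and 9.30. The opposite order was seen in an intron of 5730522E02Rik, at chr11:26200997-26201253, with 10.1 in replicate 1 and 4.08 in replicate 2. Zfp974, whose sequence is printed above, had 8.98 and 5.02. Of the 10 regions ranked highest by mean fold, 8 were thus higher in replicate 2 as computed, but 3 of these 8 carry a value that belongs to a neighbour.

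These 3 regions are promoter regions within 0.158 kb of a conservative peak. In replicate 2 the own peaks overlapped and merged into 1 region that also held the strong neighbour, and the fold reported was that of the neighbour. They lie near Top2b (DNA topoisomerase II beta) at chr14:16365646-16366245, near 3830406C13Rik at chr14:12284521-12285043 and near Gm10322 at chr10:59616028-59616473, with replicate 2 folds of 10.9, 10.3 and 11.2. With only own peaks whose summit fell inside the weak region, these folds were 2.31, 5.13 and 3.80, against 3.87, 4.15 and 3.03 in replicate 1. Such merging touched 56 weak regions in replicate 1 and 60 in replicate 2. With the summit inside, 4604 regions were in both own lists, the medians were 3.89 and 3.70, the highest folds were 10.1 and 9.95, and the Pearson correlation was 0.15.

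Some weak regions lay close to a conservative peak. The closest weak regions, 7 in all, were 44 bp from a conservative peak, and the first 5 of them in genome order, on chromosomes 1, 6, 9 and 12, had pooled folds from 2.43 to 3.93. The region at chr1:134494062-134494303 was called in replicate 1 alone, where its fold of 9.96 also comes from a merged neighbour. The 5 other regions with the fewest bases shared with a conservative peak shared 157 to 162 bases and had pooled folds from 3.10 to 5.12. The shared bases were their whole width, so they are narrow regions and not borderline cases of the rule. The folds of these 5 regions overlap those of the 5 weak regions above. Their pooled −log10 p values did not, at 13.1 to 16.4 against 4.98 to 11.6 in the weak ones.

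The IDR score grades the weak regions below the limit. The score is higher for a rank better kept, and the lowest score in the conservative set was 540. Every weak region held a peak of the authors' ranked list. Their median score was 144, which is also the lowest score given, and 13611 (50.4%) were under 200. A score from 500 to just under the limit was held by 959 regions (3.55%), and 5 regions held a ranked peak at or above it. The share in both own lists was 2.44% in regions scored under 200, 24.7% from 200 to under 300, 30.4% from 300 to under 400, 42.2% from 400 to under 500 and 51.9% from 500 to under 540. Promoter regions made up 15.2% of the lowest class and 18.2% of the highest, while the share was 22.3% in regions of both own lists and 13.6% in those of neither.

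**Figure D2:**
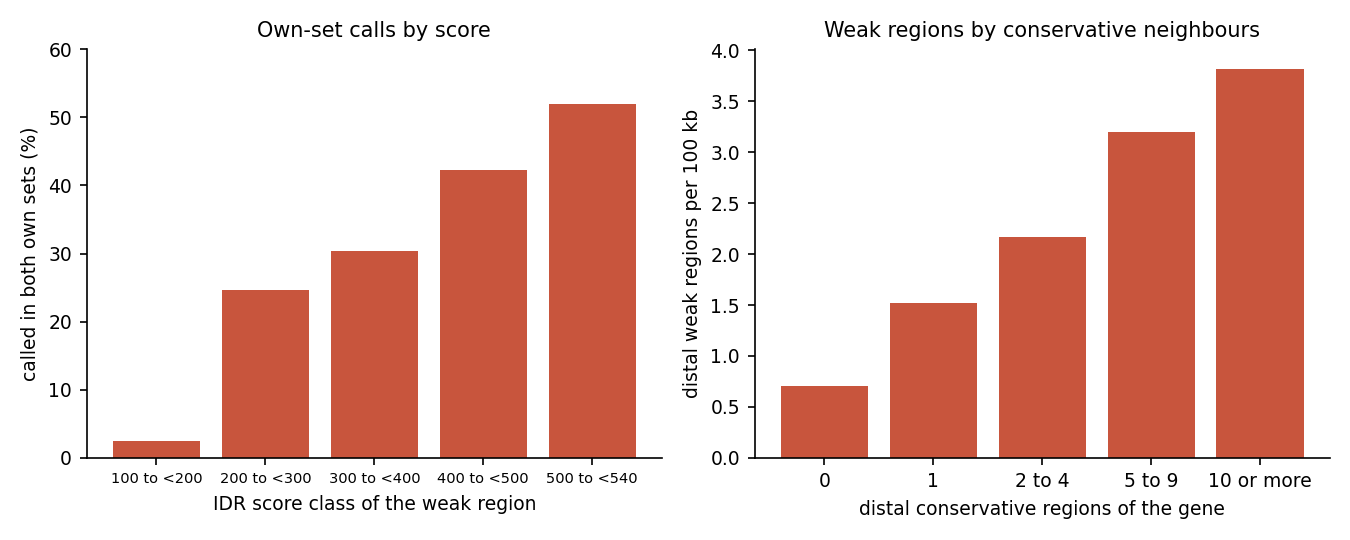
Left, share of weak regions called in both own lists (y axis, percent) by class of IDR score (x axis), rising from 2.44% to 51.9%. Right, distal weak regions per 100 kb of territory (y axis) of genes grouped by their number of distal conservative regions (x axis), rising from 0.701 to 3.82.

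Location relative to genes was not used by the rule, apart from the bar on bases shared with a conservative peak. Weak regions lay less often at promoters than the other regions and more often there than the genome at large. A region counts as a promoter region when any of its bases is at most 1 kb from a protein-coding TSS of the GENCODE M21 annotation, and 4342 weak regions (16.1%) did, against 36.9% of the other regions and 2.91% of 239597 windows of 283 bp placed every 10 kb. Of the weak regions, 8.08% lay in exons, 34.9% in introns and 40.9% between genes. For weak regions in the own lists the promoter share was 18.5% in replicate 1 and 20.3% in replicate 2 (19.4% ± 1.30, SD, n = 2). Both replicates were far below the 36.9% of the other regions. The regions within a list share their library, so no test was made.

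The lower promoter share was the main difference in location. Outside promoters, 9.63% of weak regions were exonic, 41.6% intronic and 48.8% intergenic, close to the 9.55%, 40.1% and 50.4% of the other regions. Of the weak promoter regions 37.4% covered a TSS, against 83.6% of the other promoter regions. The rule bears on this, since a weak region cannot share a base with a conservative peak. Of 3912 genes with a weak region at the promoter, 2152 also had a conservative one. Where a weak region was alone at the promoter, it covered a TSS in 55.6% of genes. Weak regions were also narrower (median 283 bp against 448 bp). The median distance of a weak region to a TSS was 15.8 kb against 5.90 kb, and 12.4% lay over 100 kb away against 5.52%. The promoter share did not rise steadily with strength within the weak regions, at 14.5%, 16.1%, 17.2% and 16.4% in 4 classes of rising −log10 p.

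**Figure D3:**
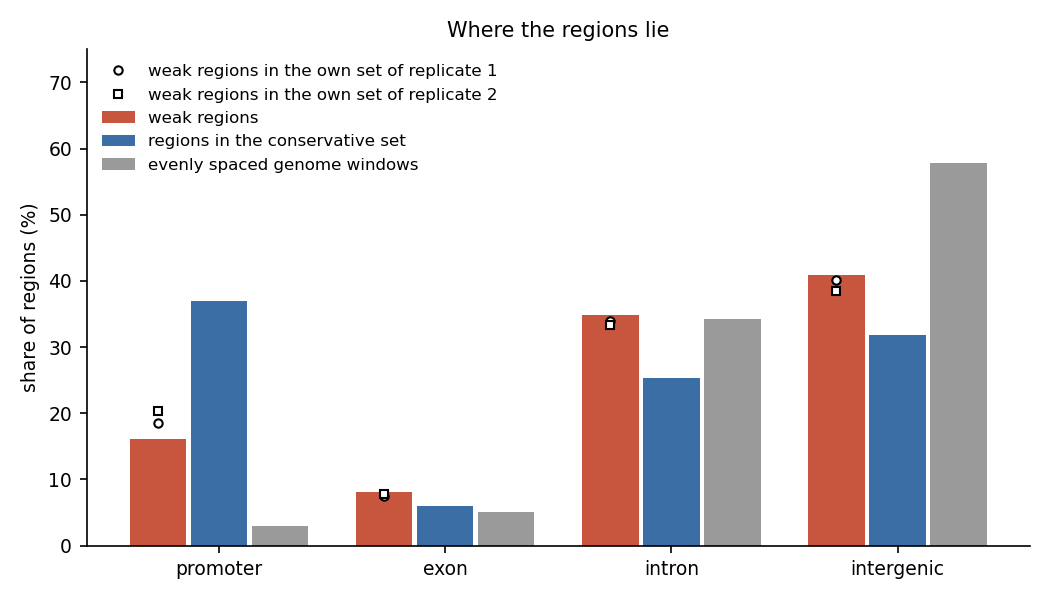
Share of regions (y axis, percent) at promoters, in exons, in introns and between genes, for weak regions, regions in the conservative set and evenly spaced genome windows. Open symbols give the weak regions present in the own list of each replicate, and both lie between 18.5% and 20.3% at promoters, below the 36.9% of the conservative set.

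In GC content and repeats the weak regions were nearer to the other regions than to the windows. In CpG content they were nearer to the windows over all regions, but not within classes of location. Their median GC content was 51.3%, against 52.8% in the other regions and 41.7% in the windows. The CpG ratio, the observed over the expected number of CpG dinucleotides, had a median of 0.232, 0.336 and 0.150 and was over 0.6 in 10.4%, 30.7% and 1.93% of them. CpG islands, which mark many promoters, give such high ratios, and among promoter regions the share was 46.3% of the weak and 73.6% of the other ones. Within each class of location the median CpG ratio of weak regions was nearer to that of the other regions. At promoters it was 0.568 in weak regions, 0.737 in other regions and 0.263 in windows. Between genes these values were 0.198, 0.249 and 0.136. Bases masked as repeats made up 11.8% of a weak region on average, 10.2% of another region and 33.6% of a window. The 31 bases at the summit were found at more than 1 place on chromosomes 1 to 19 in 1303 weak regions (4.82%) and in 2.43% of the other regions.

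Weak summits held the motifs of PU.1, AP-1, RUNX and C/EBP above their flanks. A motif ratio is the share of summit windows (100 bp to each side) with a match on either strand, divided by the mean share of equal windows centred 1000 bp to each side. PU.1 (GAGGAAGT) was in 7.74% of weak windows and 1.40% of flanks, a ratio of 5.52, against 6.67 in the other regions, and in 1.17% of evenly spaced windows. In weak regions of the own lists its ratio was 6.97 in replicate 1 and 6.91 in replicate 2 (6.94 ± 0.0414, SD, n = 2). In the 13035 weak regions of neither own list it was 4.27. Outside promoters it was 5.88 in weak and 8.76 in other regions. Over all weak regions PU.1 had the highest ratio of the 13 motifs, as it had in the other regions outside promoters.

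The partner factors of PU.1 had lower ratios. AP-1 (TGANTCA), the site of Fos and Jun proteins, had 1.55 in weak and 1.53 in other regions, RUNX (TGTGGTT) 1.43 and 1.37, and C/EBP (TTGCNNAA) 1.26 and 1.35. Outside promoters the order of AP-1 and RUNX was reversed. There AP-1 had 1.64 in weak and 1.94 in other regions, RUNX 1.52 and 1.76, and C/EBP 1.30 and 1.72. AP-1 was in 9.09% of weak windows and 6.03% of evenly spaced ones, and RUNX in 7.47% and 4.72%. C/EBP was in 9.92% of weak windows, 7.88% of their flanks and 9.42% of evenly spaced windows. In weak regions of neither own list C/EBP was in 8.84%, below the evenly spaced windows. The composite site of ETS and IRF factors (GGAANNGAA) had 1.20 and 1.37, and 1.06 in weak regions of neither own list. The IRF motif (GAAANNGAA) had 0.927 in all weak regions and 1.13 and 1.05 in those of the own lists of replicates 1 and 2, so its direction depends on which weak regions are taken. With the letters of each motif in reverse order, which keeps the base composition, the weak ratios were 1.16 for PU.1, 1.04 for AP-1, 1.02 for RUNX and 0.854 for C/EBP. The reversed C/EBP letters hold a CpG that the motif lacks, so that ratio is not matched for CpG content.

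Promoter motifs separated the sets most. The ETS motif of promoters (CCGGAAGT) had a ratio of 3.33 at weak and 13.2 at other summits, NRF1 (GCGCATGCG), a factor of genes for mitochondria, 3.31 and 16.1 (in the own list of replicate 1 it was slightly above the 6.97 of PU.1, from matches in only 0.152% of windows), and the GC box (GGGCGGG) bound by SP1 2.30 and 6.18. Outside promoters the ETS ratios were 4.22 and 4.41. The CTCF core (AGGGGGC) had 2.47 at weak and 3.40 at other summits, and 1.63 and 2.14 in reverse order. Its reversed letters also hold a CpG that the core lacks. A match is a string of letters and was not tested for binding.

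Of the motifs of factors of other blood cells, EBF and T-box had weak ratios above those of C/EBP and the ETS-IRF composite, and GATA a ratio below 1. The motif AGATAAG of GATA factors, which act in erythroid cells and megakaryocytes, had 0.797 in weak and 0.610 in other regions. EBF (CCCNNGGGA), the motif of a B-cell factor, had 1.40 and 1.28, but 1.34 in weak regions with its letters reversed, and 1.51 with flanks at 2000 bp. T-box (AGGTGTGA), the motif of the natural killer (NK) and T cell factors T-bet and Eomes, was in 1.28% of weak windows and 0.582% of others, with ratios of 1.31 and 0.572. In reverse order the weak ratio was 1.21, and in the own lists the ratio was 1.02 in replicate 1 and 1.32 in replicate 2. Within the own lists the T-box ratio thus stood apart from 1 in replicate 2 and hardly in replicate 1. It was 1.34 in weak regions of both own lists and 1.51 in those of neither. For EBF these values were 1.27 and 1.56.

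**Figure D4:**
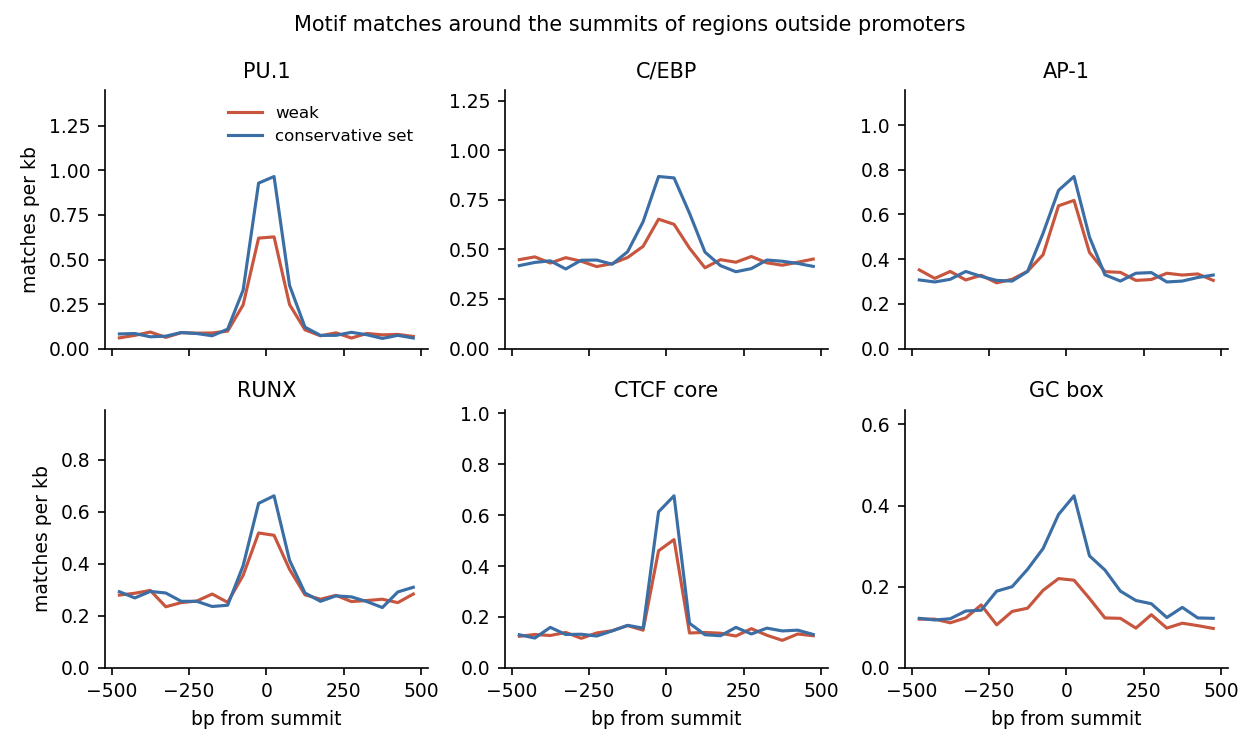
Motif matches per kb (y axis) by distance from the summit in 50 bp bins (x axis) for 22665 weak and 17564 other regions outside promoters. In the bin just right of the summit PU.1 reached 0.627 matches per kb in weak and 0.966 in other regions, against 0.0679 and 0.0592 at the right edge, so both sets peak at the summit and the weak set peaks lower.

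Weak regions gathered around strong ones. The median distance from a weak region to the nearest conservative region was 11051 bp, and 47.7% lay within 10 kb, against 16.1% of evenly spaced windows. Conservative regions lay within 10 kb of another one in 57.6% of cases. Of the 4007 weak regions closer than 1 kb (14.8%), 46.1% were promoter regions, against 11.0% of those 1 to 10 kb away and 8.07% of those 100 kb or more away. By chromosome, weak regions ranged from 8.36 per Mb on chromosome 14 to 15.3 per Mb on chromosome 11. Chromosome 11, which is rich in genes, had the most of the other regions too, and the share of replicated regions that was weak was lowest there, at 43.4%, and highest on chromosome 3, at 53.0%.

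Distal weak regions were assigned to the gene with the nearest TSS within 100 kb. Of 22665 distal weak regions, 19308 (85.2%) were assigned, to 8665 of 20722 protein-coding genes (41.8%), with 5 or more at 875 genes and 10 or more at 108. Genes with strong regions also had weak ones: relative to the length of sequence nearest to each gene, its territory, there were 0.701 distal weak regions per 100 kb in genes with no distal conservative region, 1.52 with 1, 2.17 with 2 to 4, 3.20 with 5 to 9 and 3.82 with 10 or more. Still, 3822 genes had a distal weak region and no distal conservative one.

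The gene with most distal weak regions was Foxp1 (a forkhead factor that acts in monocyte and lymphocyte development), on chromosome 6, with 30 weak and 19 conservative ones. Of the 30, 29 lay within the gene, their pooled folds ran from 2.42 to 5.26 with a median of 3.28, and replicates 1 and 2 each had 13 in their own lists. Bach2 (a transcriptional repressor) followed with 22 weak and 9 conservative regions, and of the weak ones replicate 1 had 12 and replicate 2 had 9. Both are long genes, with territories of 666 and 371 kb.

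Of the 15 genes with most distal weak regions, 10 more had 14 to 18 of them. Prex1 (an activator of Rac in phagocytes) had 18 weak and 16 conservative distal regions, Pde4d (a cAMP phosphodiesterase) 18 and 9, and Cd47 (the ligand that restrains phagocytosis) 17 and 10. Dock10 (an activator of Cdc42 and Rac) had 17 and 7, Ppm1h (a phosphatase) 17 and 8, Foxn3 (a forkhead factor) 16 and 13, and Akap13 (an anchor of protein kinase A) 15 and 10. Chsy1 (chondroitin sulfate synthase) had 15 weak against 4 conservative regions in a territory of 115 kb, Fry 15 and 4, and Ankrd44 14 and 16. Ankrd44 shares its count of 14 with other genes.

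In 5 of the 15 genes some summit sequence was repeated. Near Tcp10c (of a testis-expressed family) the 31 bases at the summit occurred more than once in 14 of 16 weak regions, and near Prl2c3 (a prolactin-family gene of the placenta) in 13 of 21. It was 3 of 17 near Sfi1 (a centrosome gene), 3 of 17 near Ppm1h and 1 of 18 near Pde4d. The pooled folds of the 17 regions of Sfi1 were low, from 1.59 to 2.70. Prl2c3 and Tcp10c had 1 and 2 distal conservative regions, Sfi1 had 19. How reads that match several copies were placed is not given in the sources used here, so the counts of these 5 genes are uncertain.

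At promoters, 3912 genes had a weak region, of which 2152 also had a conservative one and 1760 (8.49% of all genes) had a weak one alone. Of the 1760, 529 had a weak region in both own lists and 626 in neither, and in 979 the region covered a TSS. The CpG ratio of these promoters was intermediate, with a median of 0.580 against 0.740 for promoters with a conservative region and 0.235 for those with no region. In 5 classes of rising CpG ratio the share of genes with a weak region alone was 5.04%, 9.22%, 11.7%, 8.06% and 8.44%. By contrast, the share with a conservative region rose steadily from 9.31% to 79.4%.

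The strongest promoters held by a weak region alone belong to genes of varied function. After Ndufaf4, described above, came Slc35a3 (a transporter of nucleotide sugars) at chr3:116711672-116712535, with folds of 5.09 in replicate 1 and 7.90 in replicate 2 (6.49 ± 1.99, SD, n = 2). Fam213a (a redox protein) had 4.79 and 7.89, and Mnat1 (a subunit of the kinase that activates cyclin-dependent kinases) 4.88 and 7.39. All 3 were higher in replicate 2.

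Cfap46 (a protein of cilia), Wdr11 and Prpf39 (a splicing factor) were also higher in replicate 2, with 4.21 and 7.68, 4.70 and 7.13, and 4.19 and 7.42. Slc43a3 (a transporter of purine bases) was higher in replicate 1, with 6.99 and 4.94, as were Fxr1 (an RNA-binding protein), with 7.39 and 4.29, and 9830107B12Rik, with 7.50 and 4.12. In each of these 10 promoters 1 replicate stood well above the other. This largely follows from the selection, since regions strong and alike in both replicates fall in the conservative set.

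Most genes that mark monocytes had weak regions. Of the 20 myeloid transcription factors, 16 (80.0%) had a distal weak region, against 41.8% of all genes, and 3 had a weak region alone at the promoter. These 20 genes held 104 distal conservative regions. Over all genes, 76.1% of those with 2 to 4 distal conservative regions and 96.1% of those with 5 to 9 had a distal weak one. The highest counts of distal weak regions in the list were at Cebpb (the C/EBP factor of monocyte survival), Runx1 and Zeb2, with 12 each. Beside them were 15, 12 and 4 conservative regions. Spi1, which encodes PU.1, had 3 weak and 4 conservative distal regions. None of the 20 had weak regions only, while 2 of 15 classical monocyte genes did, Chil3 and S100a8.

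In the classical monocyte list 14 of 15 genes (93.3%) had a distal weak region, against 41.8% of all genes. Ccr1 (a chemokine receptor) led with 7, and F13a1 (coagulation factor XIII) had 6. Fn1 and Csf1r (the receptor for macrophage colony-stimulating factor) had 4 each. Ccr2, the receptor by which these monocytes leave the marrow, had 1 weak and 3 conservative distal regions, Ly6c2 had 2 and 0, and Fcgr1 (an Fc receptor) 3 and 1. S100a8 (a calcium-binding alarmin) and Fn1 (fibronectin) were among those with a weak region alone at the promoter. That of S100a8, at chr3:90668823-90669348, had folds of 3.08 in replicate 1 and 3.43 in replicate 2, and that of Fn1, at chr1:71652599-71653286, had 3.86 and 3.82. These were low and alike in both replicates.

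In the nonclassical monocyte list 9 of 15 had a distal weak region, led by Cd36, Spn and Tgfbr3 with 5 each, and Cx3cr1, the receptor that marks these cells, had 0 beside 5 conservative ones. Per 100 kb of territory this list had 3.13 weak and 5.25 conservative distal regions, the classical list 3.09 and 2.03, and all genes 1.31 and 1.09. The classical list had more weak than conservative regions, and the nonclassical list fewer.

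In several lists of other blood cells, genes often had a weak region alone at the promoter. This was so for 8 of 15 B cell genes (53.3%), 6 of 15 NK cell genes, 5 of 15 platelet and megakaryocyte genes (33.3%) and 4 of 13 erythroid genes (30.8%), against 8.49% of all genes. For T cell genes it was 1 of 18 (5.56%), for progenitor genes 3 of 10 and for neutrophil genes 3 of 15. Weak regions and no conservative region, at the promoter or distal, were found in 33.3% of the B cell, 26.7% of the NK cell, 40.0% of the platelet, 23.1% of the erythroid, 11.1% of the T cell and 40.0% of the progenitor list, in 3 of 15 neutrophil genes and in 3 of 10 of the mast cell, basophil and eosinophil list, against 12.4% of all genes. The classical monocyte list had 13.3%, and outside the blood the neuron list had 36.4% (4 of 11) and the hepatocyte list 16.7%, so this measure was not high in lists of blood cells alone. The lists are short and were chosen with earlier results known, so these counts carry no test. The share of other cells in the samples was not measured, and their part in these counts was not tested.

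Among NK cell genes, 11 of 15 (73.3%) had a distal weak region, against 41.8% of all genes. The list had 3.84 distal weak regions per 100 kb of territory and 1.81 conservative ones. Eomes (an NK cell T-box factor), Gzma (granzyme A) and Txk (a kinase) had 5 distal weak regions each. The promoter of Ncr1 (the activating receptor NKp46), at chr7:4337476-4337855, had a pooled fold of 6.82 and folds of 7.15 in replicate 1 and 4.23 in replicate 2. That of Il2rb (a chain of the interleukin 2 and 15 receptors) had 3.14 and 4.10, while those of Klrd1, Klrk1 and Gzma were in neither own list. Nkg7 was in that of replicate 2 alone, at 3.11. Gzmb (granzyme B) differed, with a conservative region at its promoter and 2 distal weak ones.

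Among B cell genes, 11 of 15 (73.3%) had a distal weak region, against 41.8% of all genes. Bach2 had 22, Bank1 (an adaptor of the B cell receptor) 4 and Ebf1 (a B-lineage factor) 3. Promoters with a weak region alone were those of Ms4a1, which encodes CD20, Cd79a, Ebf1, Blk, Cr2, Pou2af1, Fcrla and Ralgps2. The folds in replicates 1 and 2 were 5.53 and 4.23 at Cr2 (a complement receptor), 3.58 and 4.78 at Pou2af1 (a coactivator of Oct factors) and 4.17 and 3.52 at Ebf1. Of these 8 promoters, Ms4a1 and Blk were in neither own list. Pax5, the factor that fixes B cell identity, had a conservative region at its promoter and 1 distal weak one.

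Among platelet and megakaryocyte genes, 8 of 15 (53.3%) had a distal weak region, against 41.8% of all genes. Itgb3, Gp9 (both of platelet surface receptors) and Vwf (von Willebrand factor) led with 3 each. The promoter of Itga2b (the integrin CD41), at chr11:102470022-102470425, had folds of 3.49 in replicate 1 and 2.64 in replicate 2, that of Gp5 was in the list of replicate 1 alone, and those of Itgb3, Gp9 and Pf4 were in neither. Of 13 erythroid genes 4 (30.8%) had a distal weak region, below the 41.8% of all genes. Ank1 led with 6, and Tal1 and Tfrc had 2 each. Per 100 kb of territory, however, the erythroid list had 1.58 distal weak regions and the platelet list 3.44, both above the 1.31 of all genes. The adult beta-globin genes Hbb-bs and Hbb-bt, which are near-identical copies, had a weak region alone at the promoter, in the own list of replicate 1 only, and the alpha-globin genes had none.

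T cell genes were close to all genes at promoters. Of 18, 11 (61.1%) had a distal weak region, and among them Cd28 had 5 and Lef1 had 4, and Cd3e, Cd4 and Bcl11b had 1 each, in neither own list. The exception at promoters was Il7r (the interleukin 7 receptor), with folds of 3.58 and 5.76. Of 15 neutrophil genes 7 (46.7%) had a distal weak region, near the 41.8% of all genes, led by Padi4 with 3, and Elane had 0. Dendritic cell genes (7 of 12, 58.3%) were led by Tcf4 with 10, Ccr7 with 7 and Itgae with 3, tissue macrophage genes (4 of 14, 28.6%) by Adgre1 with 4, Mrc1 with 3 and Cd163 with 2, and progenitor genes (7 of 10, 70.0%) by Erg with 7, Myb with 5 and Cd34 with 3. Kit and Gata2 had 1 each. In the mast cell, basophil and eosinophil list it was 5 of 10, led by Hdc with 4. Per 100 kb of territory the progenitor list had 1.14 distal weak regions and the tissue macrophage list 1.06, both below the 1.31 of all genes. The other lists of this paragraph were above it: neutrophil 2.73, dendritic cell 2.35, T cell 1.86, and mast cell, basophil and eosinophil 1.48.

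For genes of tissues outside the blood the measures differed. Per 100 kb there were 0.843 distal weak regions in the hepatocyte list, 0.550 in the neuron list and 0.147 in the muscle list, against 1.31 over all genes. By gene, 41.7% of the hepatocyte list, 45.5% of the neuron list and 1 of 10 muscle genes had a distal weak region, against 41.8% of all genes, and 2 of 11 neuron genes (18.2%) had a weak region alone at the promoter. Alb and Myod1 had no region of either kind, and Neurod1 had 2 distal weak ones. Camk2a had 4. In the muscle list only Ckm had a distal weak region.

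**Figure D5:**
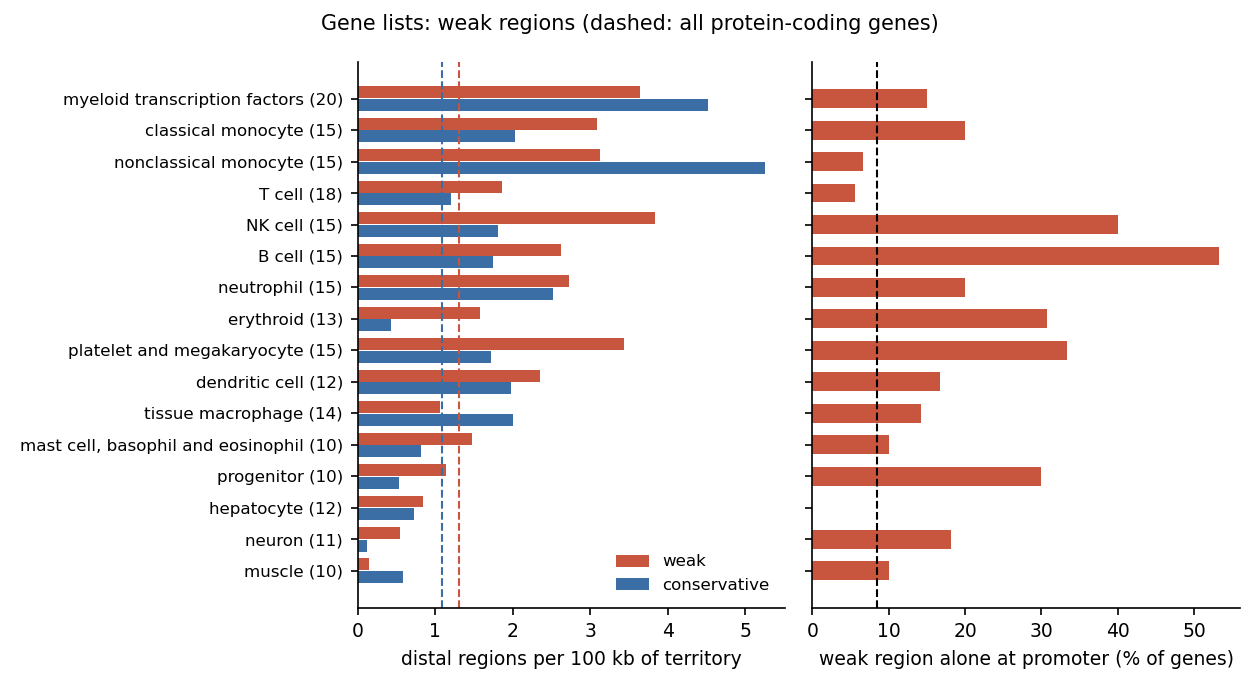
Left, distal weak and conservative regions per 100 kb of territory (x axis) in each of 16 gene lists, with the number of genes in parentheses. Right, share of genes with a weak region and no conservative region at the promoter (x axis, percent). Dashed lines give all protein-coding genes (1.31 weak and 1.09 conservative per 100 kb, and 8.49%), and the B cell (53.3%) and NK cell (6 of 15) bars reach farthest beyond the line on the right.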

How the data were processed

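ATAC-seq peak lists of 2 replicates of mouse monocytes (1 group) on mm10 were used, per the labels. The authors deposited peaks per replicate and peaks from both replicates; the sources used here name no aligner, peak caller or Tn5 shift. Fold enrichment is a linear ratio over background, as deposited by the authors, and was not scaled between samples. Peak −log10 p values are likewise those deposited by the authors. The IDR score comes from the authors' deposited ranked list that held every conservative peak. The deposited notes name a further input to the filtered sets without saying what it is.

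Overlapping peaks (1 base or more) were merged, keeping the top fold and the summit with the lowest p. A weak region counts as present in a replicate where it overlaps that replicate's own pseudoreplicated list. Gene models came from GENCODE M21 and bases from RefSeq GRCm38.p6; chromosomes X and Y were not analysed here, so 13 of 15 erythroid, 14 of 15 tissue macrophage and 11 of 12 neuron genes were used. Interval routines were tested on simulated regions. With 1 group there is no test between groups, depth is unknown and no interval that needs counts is given.

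The members, the 16 gene lists, the 13 motifs and 23 fixed genes were chosen with earlier results of these data known. Also named were the 10 strongest regions, 10 strongest promoters, the 15 genes with most distal weak regions and the 3 leading members of each list, besides members with a weak region alone. Some genes under this rule are not reported here. Strongest means the highest mean fold over both replicates. Python 3.11.15, numpy 2.4.6, scipy 1.17.1 and matplotlib 3.10.9 were used.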

Additional observations from a re-analysis of the deposited data

How the results depend on the processing

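The number of weak regions stayed between 22702 and 27909 under the other peak sets and limits, apart from the restriction to 1 own list. The median fold in the own lists, averaged over the replicates, was 3.81, and 3.80 to 3.85 under those settings (3.90 in replicate 1 alone and 3.72 in replicate 2 alone). With only the weak regions of 1 replicate's own list (leaving out each replicate), there were 9224 to 9361 regions, the promoter share was 18.5% to 20.3%, distal weak regions were at 4291 to 4351 genes, promoters with a weak region alone numbered 837 to 912 and the PU.1 ratio was 6.91 to 6.97. The promoter share was 11.9% without regions within 500 bp of a conservative peak, 12.4% with a promoter window of 500 bp and 19.9% with 2 kb. The share in both own lists was 17.9% with the IDR thresholded set in place of the conservative one, 19.2% with the pseudoreplicated in place of the replicated set, 20.2% with a −log10 p of at least 5, and 0.0518% with own lists cut by IDR. The PU.1 ratio was 5.98 with the pseudoreplicated set, 5.81 without regions within 500 bp, 6.02 with a −log10 p of at least 5, 8.36 with 50 bp around the summit and 5.91 with flanks at 2000 bp. In weak regions outside promoters, an alternative chosen after seeing the data, as were own summits inside the region, reversed motif letters and the search for copies, it was 5.88. The IRF ratio, 0.927, was 1.00 with the pseudoreplicated set and with a −log10 p of at least 5, and 1.05 without replicate 1 and 1.13 without replicate 2. The cause of these shifts was not tested. No paired analysis was possible because the series has 1 group. Depth is unknown, so whether a region missing from an own list lacks reads or was too shallowly read cannot be told.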
